A study of Mus musculus with 8 samples.

Results

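The genes described here are 10 cell cycle genes, the D cyclins Ccnd1, Ccnd2 and Ccnd3, the E cyclins Ccne1 and Ccne2, the A and B cyclins Ccna2, Ccnb1 and Ccnb2, and the cyclin-dependent kinases Cdk1 and Cdk2. They were taken by symbol from a table of 26642 genes and loci, where each of the 10 symbols had 1 row, and all 10 passed the filter on low counts. The levels come from mRNA sequencing of CT26, a mouse colon carcinoma cell line, grown in RPMI medium with serum. The WT group was unedited CT26 (4 libraries) and the other group was CT26 with a Tead1/4 knockout (4 libraries). Both groups were CT26 cells in culture. The labels name no other allele or agent and do not say whether the knockout cells were 1 clone or a pool, nor whether replicates were separate cultures. Each p-value here is therefore relative to the spread among the libraries, which may be technical. TEAD proteins bind DNA and recruit the Hippo pathway coactivators YAP and TAZ.

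Cyclins are the regulatory subunits that switch on the cyclin-dependent kinases (CDKs). D cyclins are made in response to growth signals and act with CDK4 and CDK6 on the retinoblastoma protein, which releases E2F factors. E2F factors in turn drive transcription of E and A cyclins, E cyclins with CDK2 carry the cell into DNA replication, A cyclins act with CDK2 and CDK1 through S and G2 phase, and B cyclins with CDK1 drive mitosis. Transcripts of A and B cyclins are therefore abundant in S, G2 and M phase and low in resting cells, whereas D cyclin transcripts follow growth signals more than the phase of the cycle. Cyclin D1 is a well-known driver in carcinomas and has been described as a gene that YAP and TEAD can act on. In bulk RNA, fewer cells that express a gene and less RNA per cell cannot be told apart.

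Total counts per library ranged from 29679405 to 32774905. Genes and loci with a count above 0 numbered 14566 to 15430 in the WT libraries. They numbered 14345 in knockout replicate 1 and 17759, 17948 and 17775 in knockout replicates 2, 3 and 4. The cause of this difference was not tested. Levels are given in CPM, the usual depth-scaled count unit, with TMM factors. Fold changes are log2 values of the knockout relative to WT, each with a standard error (SE), and a gene was called when its adjusted p in edgeR's quasi-likelihood test was under 0.05. Tead1 was lower in all knockout libraries (206 ± 80.8 CPM in WT and 67.5 ± 12.4 in the knockout, SD, n = 4 each), and Tead4 was lower with overlapping values (47.8 ± 12.2 and 29.3 ± 6.08 CPM). Which exons were edited is not given, and mRNA levels say nothing of how much TEAD protein was left. Of the colon and epithelial markers, Krt18 and Krt20 were present (38.5 ± 2.93 and 34.6 ± 19.2 CPM in WT). Epcam had a count of 0 in all libraries, and Krt8, Krt19, Cdh1, Vil1 and Cdx2 were under 1 CPM on average in both genotypes. Of 3 tested markers, 1 rose: Krt18 had 76.3 ± 8.65 CPM in the knockout (log2 fold change 0.99, edgeR adjusted p = 0.00107). Krt20 (47.4 ± 9.12 CPM in the knockout) and Krt8 were not called. Fibroblast markers summed to 1387 to 2078 CPM in WT and 1676 to 2129 in the knockout libraries, with 3 of 5 tested markers higher in the knockout. Most of these sums came from Col1a2 (1418 ± 296 CPM in WT and 1519 ± 160 in the knockout), which was not called. The 3 that rose were Dcn (0.0355 to 7.83 CPM), Pdgfra (8.01 to 35.9) and Pdgfrb (39.7 to 84.9). Of all rows tested, 20.9% were called higher. The 6 leukocyte markers summed to at most 16.4 CPM and the 4 endothelial markers to at most 6.45 CPM in any library, with 2 of 2 and 1 of 1 tested markers higher in the knockout. Ptprc, Cd3e, Pecam1, Cdh5 and Kdr, which are defining markers of those cell types, averaged at most 0.0457 CPM in either genotype. The part of these markers in the results was not tested. Knockout replicate 1 stood apart from the other knockout libraries for most of the genes described here, so the results for the 10 genes are given with and without it. Tead1 was called lower in both fits (log2 fold change -1.61, and -1.51 without it).

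Promoter sequence is shown first because the 10 genes include some known to share a late cell cycle promoter layout. RefSeq promoter windows (GRCm38.p6, 250 bases before to 50 after the start) were matched by symbol for 6 of the 10 genes: Ccnd3, Ccne1, Ccnb1, Ccnb2, Cdk1 and Cdk2. They were searched on both strands for the CCAAT box (CCAAT), bound by NF-Y, the CHR element (TTTGAA or TTCGAA), bound by MuvB complexes, E2F sites (TTTGGCGC, TTTCGCGC, TTTCCCGC or TTTGCCGC) and the core TEAD site (CATTCC). Stretches that hold matches follow, 5′ to 3′ on the gene's strand and in lower case, with each match in capitals. Positions count from the RefSeq start, with -1 the base before it.
Ccnb1, chr13:100786541-100786606, minus strand: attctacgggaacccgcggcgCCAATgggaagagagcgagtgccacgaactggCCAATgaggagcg
Ccnb2, chr9:70421545-70421654, minus strand: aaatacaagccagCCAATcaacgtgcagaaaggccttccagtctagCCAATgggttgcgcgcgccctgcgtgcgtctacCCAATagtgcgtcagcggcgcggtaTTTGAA
Cdk1, chr10:69352913-69353047, minus strand: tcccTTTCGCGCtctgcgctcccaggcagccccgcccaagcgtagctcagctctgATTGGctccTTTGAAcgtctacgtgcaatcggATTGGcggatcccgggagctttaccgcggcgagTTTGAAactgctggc
Cdk2, chr10:128705087-128705196, minus strand: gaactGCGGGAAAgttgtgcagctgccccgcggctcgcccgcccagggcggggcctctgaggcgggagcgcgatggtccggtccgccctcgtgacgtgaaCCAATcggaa
Ccnd3, second promoter, chr17:47593352-47593466, plus strand: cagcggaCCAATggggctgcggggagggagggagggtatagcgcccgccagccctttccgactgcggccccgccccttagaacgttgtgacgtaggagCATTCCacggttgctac

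The mitotic genes Ccnb1, Ccnb2 and Cdk1 carried more than 1 CCAAT box each. The starts of neighbouring boxes lay 32 bases apart in Ccnb1, 33 and 33 in Ccnb2, and 128 and 32 in Cdk1, whose first box, at -208, is outside the stretch shown. Cdk1 also held CHR matches at -71 and -15 and an E2F match at -131, and Ccnb2 a CHR match at 5 and another, outside the stretch shown, at -167. Cdk2 held an E2F match at -140, read on the other strand. Cdk2 and the second of 2 Ccnd3 promoters held 1 CCAAT box each. The TEAD site was found in 1 of the 6 genes, Ccnd3, at -17 of that promoter. No match was found in the Ccne1 window. The CHR matches were in Ccnb2 and Cdk1, which were not called in the fit of all 8 libraries (edgeR adjusted p = 0.113 and 0.0826). Without knockout replicate 1 both were called lower (edgeR adjusted p = 0.00123 and 0.00307). Ccnd1, Ccnd2, Ccne2 and Ccna2 had no window, so whether they carry these motifs is not known here. Of 32817 RefSeq promoter windows of the same length, 37.4% held a CCAAT box, 19.2% a CHR match, 2.26% an E2F match and 14.7% the TEAD match. A match is a run of letters and does not show that a factor binds there.

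Across the 10 genes, 5 fell in the knockout, none rose and 5 did not pass the test. Those that fell were Ccne1, Ccne2, Ccna2, Ccnb1 and Cdk2. The background was wide: of 13265 genes and loci tested, 20.6% were called lower, 20.9% higher and 41.6% in either direction. The median log2 fold change was -1.06 over the 10 genes and 0.02 over all rows tested. Without knockout replicate 1, 8 of the 10 fell and none rose, against 24.6% of all rows called lower, 24.7% higher and 49.4% in either direction, and the median was -1.72. The 2 that were not called in either fit were Ccnd1 and Ccnd2. With knockout replicate 2, 3 or 4 left out instead, 4 members were called each time.

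Ccnd1 encodes cyclin D1 (ENSMUSG00000070348, GRCm38 chromosome 7, 144929931 to 144939925, minus strand). It stood at 1239, 1128, 1432 and 1221 CPM in WT replicates 1 to 4 and at 990.4, 856, 1141 and 1168 CPM in knockout replicates 1 to 4. The knockout values of Ccnd1 reached into the WT range, with knockout replicates 3 and 4 above WT replicate 2. Its log2 fold change was -0.27 (SE 0.18, adjusted p = 0.232 with edgeR), and without knockout replicate 1 it was the same to 2 decimals (-0.27, adjusted p = 0.230). The value depended on the scaling, at -0.09 with library size only or upper-quartile factors.

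Ccnd2 encodes cyclin D2 (ENSMUSG00000000184, chromosome 6, 127125162 to 127152193, minus strand) and was the only member with a positive fold change. It stood at 251, 257, 197 and 258 CPM in WT and at 268, 224, 338 and 343 CPM in the knockout libraries. Knockout replicate 2 lay below 3 of the WT libraries, so the groups overlapped. The log2 fold change of Ccnd2 was 0.28 (SE 0.18, adjusted p = 0.218 with edgeR), and 0.31 without knockout replicate 1 (adjusted p = 0.189). The estimate was larger, and still not past the threshold, under upper-quartile scaling (0.47, adjusted p = 0.0560) and under library size scaling (0.48, adjusted p = 0.0637).

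Ccnd3 encodes cyclin D3 (ENSMUSG00000034165, chromosome 17, 47505051 to 47599691, plus strand). It stood at 136, 129, 135 and 107 CPM in WT and at 124, 93.5, 88.0 and 82.3 CPM in the knockout. Only knockout replicate 1 reached into the WT range. The log2 fold change of Ccnd3 was -0.39 (SE 0.16, adjusted p = 0.0799 with edgeR), and without knockout replicate 1 the gene fell (-0.54, SE 0.13, adjusted p = 0.00936). The 3 D cyclins thus had estimates on different sides of 0, and in the 8-library fit 0 of 3 passed.

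**Figure D1:**
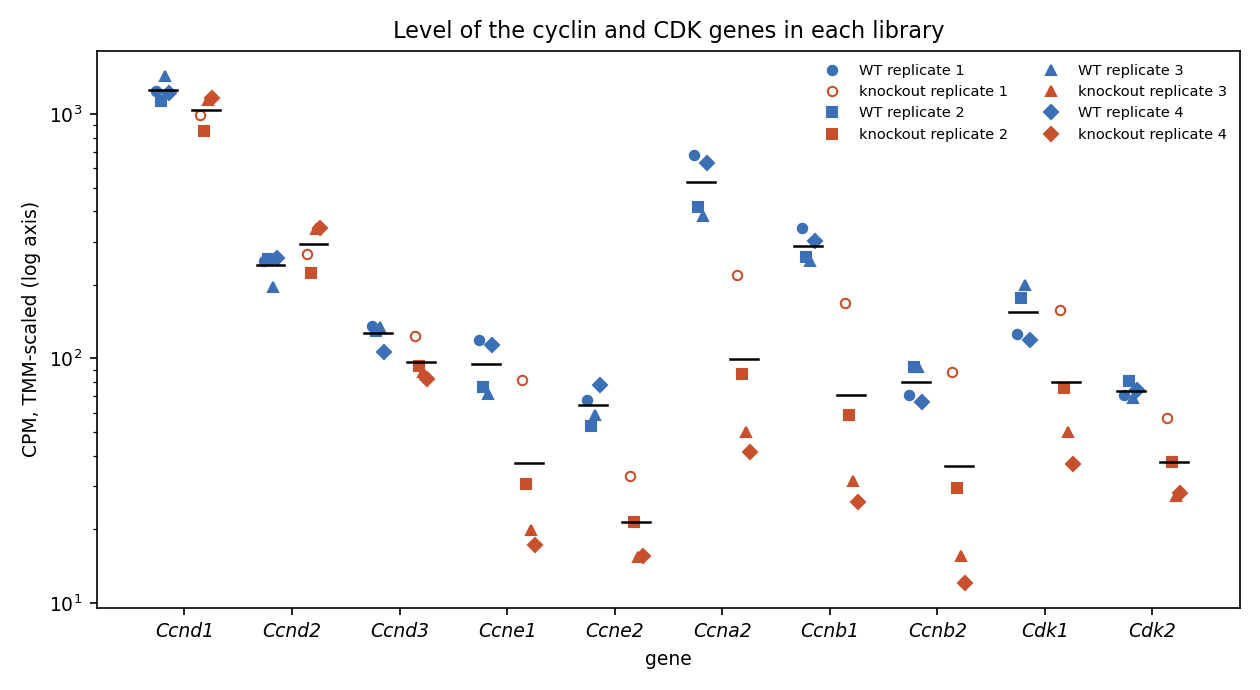
CPM on a log axis for each of the 10 genes, with 1 point per library, WT in blue and knockout in orange, and black lines for the means of the 4 libraries. Knockout replicate 1, drawn as an open circle, is above the other knockout libraries for 8 of the 10 genes, while the D cyclin values of the genotypes overlap.

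The E cyclins both fell. Ccne1 encodes cyclin E1, a partner of CDK2 at the start of DNA replication (ENSMUSG00000002068, chromosome 7, 38097984 to 38107534, minus strand). It stood at 119, 76.1, 71.8 and 114 CPM in WT and at 81.3, 30.7, 19.8 and 17.3 CPM in the knockout. WT replicates 1 and 4 were the high WT libraries, and knockout replicate 1 lay above WT replicates 2 and 3. The mean of Ccne1 was 95.1 ± 24.6 CPM in WT and 37.3 ± 29.9 in the knockout, a 2.55-fold lower fitted level (log2 fold change -1.35, SE 0.46, adjusted p = 0.0389 with edgeR). This call was lost without WT replicate 1, 2 or 4 (adjusted p = 0.0936, 0.0506 and 0.0792) or knockout replicate 2, 3 or 4 (adjusted p = 0.100, 0.0881 and 0.0858), and without knockout replicate 1 the log2 fold change was -2.09 (adjusted p = 0.000746).

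Ccne2 encodes cyclin E2, the second E cyclin (ENSMUSG00000028212, chromosome 4, 11191351 to 11204779, plus strand). It stood at 67.7, 53.0, 58.7 and 78.2 CPM in WT and at 33.0, 21.3, 15.3 and 15.6 CPM in the knockout. No knockout library reached the lowest WT value. Ccne2 fell 3.02-fold (64.4 ± 11.0 to 21.3 ± 8.28 CPM, log2 fold change -1.60, SE 0.26, adjusted p = 0.00206 with edgeR), and by 1.90 on the log2 scale without knockout replicate 1. With any 1 library left out its log2 fold change lay between -1.90 and -1.46 and it stayed past the threshold.

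Ccna2, which encodes cyclin A2, had the largest fitted decrease of the 10 genes (ENSMUSG00000027715, chromosome 3, 36564865 to 36572150, minus strand). It stood at 683, 417, 383 and 632 CPM in WT and at 219, 86.1, 50.1 and 41.6 CPM in the knockout. The genotypes did not overlap, and knockout replicate 1 was 5.28 times as high as knockout replicate 4. Ccna2 fell 5.32-fold (529 ± 151 to 99.3 ± 82.4 CPM, log2 fold change -2.41, SE 0.51, adjusted p = 0.00556 with edgeR). Without knockout replicate 1 the log2 fold change was -3.17 (SE 0.34, adjusted p = 0.00036).

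Ccnb1 encodes cyclin B1, the main mitotic partner of CDK1 (ENSMUSG00000041431, chromosome 13, 100778650 to 100786570, minus strand), and its promoter stretch with 2 CCAAT boxes is shown above. It stood at 341, 261, 249.7 and 302 CPM in WT and at 168, 58.7, 31.5 and 25.9 CPM in the knockout. All knockout libraries were below all WT libraries, with knockout replicate 1 nearest to WT. Ccnb1 fell 4.05-fold (288 ± 41.6 to 71.1 ± 66.4 CPM, log2 fold change -2.02, SE 0.53, adjusted p = 0.0141 with edgeR), and the log2 fold change was -2.91 without knockout replicate 1 (adjusted p = 0.000343).

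Ccnb2, which encodes cyclin B2, did not pass the test with all libraries (ENSMUSG00000032218, chromosome 9, 70407692 to 70421547, minus strand). It stood at 70.8, 92.1, 92.0 and 66.55 CPM in WT and at 88.0, 29.5, 15.5 and 12.1 CPM in the knockout. Knockout replicate 1 was within the WT range and the other 3 knockout libraries were below it. The spread among knockout libraries, 7.27-fold from the lowest to the highest, was the widest of the 10 genes. The log2 fold change of Ccnb2 was -1.15 (SE 0.54, adjusted p = 0.113 with edgeR), and without knockout replicate 1 the gene fell (-2.09, SE 0.31, adjusted p = 0.00123). It was also called as lower with the DESeq2 Wald test (adjusted p = 0.0485) and with limma-voom (adjusted p = 0.0261). Ccnb2 was not called without knockout replicate 2, 3 or 4 (edgeR adjusted p = 0.223, 0.219 and 0.211). Nor was it called with WT replicates summed in pairs (0.255).

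Cdk1 encodes the kinase that B cyclins activate (ENSMUSG00000019942, chromosome 10, 69335146 to 69352938, minus strand). It stood at 126, 177, 199.8 and 119 CPM in WT and at 158, 75.7, 49.97 and 36.9 CPM in the knockout. As for Ccnb2, knockout replicate 1 was inside the WT range and the other 3 knockout libraries were below it. The log2 fold change of Cdk1 was -0.96 (SE 0.41, adjusted p = 0.0826 with edgeR), and -1.54 without knockout replicate 1 (adjusted p = 0.00307). It was called as lower with the DESeq2 Wald test (adjusted p = 0.0366) and with limma-voom (adjusted p = 0.0395). Cdk1 was not called without knockout replicate 2, 3 or 4 (edgeR adjusted p = 0.163, 0.179 and 0.170). Nor was it called with WT replicates summed in pairs (0.204).

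Cdk2 encodes the kinase of E and A cyclins (ENSMUSG00000025358, chromosome 10, 128697939 to 128705031, minus strand). It stood at 70.7, 80.7, 69.1 and 74.0 CPM in WT, the narrowest WT spread of the 10 genes, and at 57.2, 37.8, 27.3 and 28.0 CPM in the knockout. All knockout libraries were below all WT libraries. Cdk2 fell 1.96-fold (73.6 ± 5.10 to 37.6 ± 13.9 CPM, log2 fold change -0.97, SE 0.23, adjusted p = 0.00975 with edgeR), and the log2 fold change was -1.26 without knockout replicate 1 (adjusted p = 0.000588). Ccne2, Ccna2, Ccnb1 and Cdk2 were the 4 members whose knockout values all lay below the WT values, a pattern held by 19.6% of all rows tested. The opposite pattern, all knockout values above WT, was held by 0 members and 21.1% of rows, and either pattern by 4 members and 40.7% of rows. With WT replicates summed in the pairs 1 and 4, and 2 and 3, the calls of Cdk2 (adjusted p = 0.0561), Ccnb1 (0.0655) and Ccne1 (0.125) were lost.

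**Figure D2:**
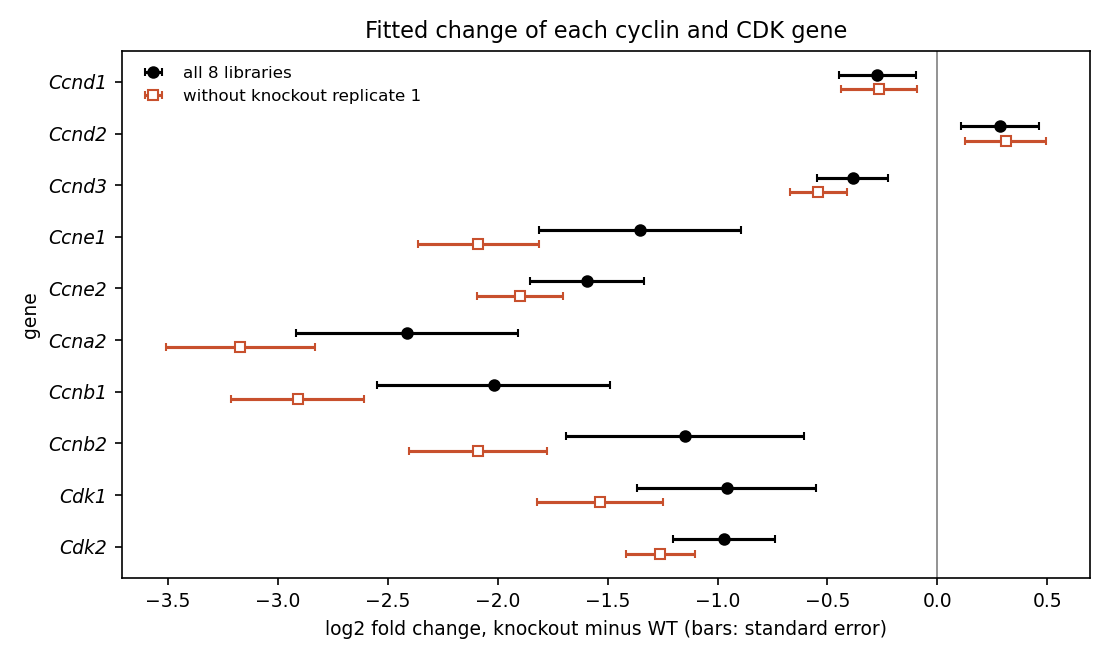
Log2 fold change, knockout minus WT, of each gene with its standard error, from the fit of all 8 libraries (black circles) and from the fit without knockout replicate 1 (open orange squares). Leaving that library out moves the E, A and B cyclins and the CDKs further below 0, from -2.41 to -3.17 for Ccna2, and leaves Ccnd1 at -0.27.

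The D cyclins were then compared with the E, A and B cyclins inside each library, as the log2 ratio of their counts, which does not depend on the scaling factor. For all 15 pairs of a D cyclin with an E, A or B cyclin the mean ratio was higher in the knockout, by 1.19 (Ccnd3 to Ccnb2) to 2.97 (Ccnd2 to Ccna2) on the log2 scale, with a median of 1.88. Of the 15 pairs, 9 did not overlap between genotypes, and these had the smallest p that 70 assignments can give (exact two-sided permutation p = 0.0286, adjusted p = 0.0477 over the 15 pairs). They were the pairs of each D cyclin with Ccne2, Ccna2 and Ccnb1. The pairs share genes, and these denominators varied together (Pearson r = 0.964 for Ccne2 and Ccna2, 0.977 for Ccna2 and Ccnb1). The 9 pairs are therefore not separate results, and their adjusted p depends on how many pairs share a denominator. The other 6, with Ccne1 and Ccnb2 as the denominators, overlapped (exact permutation p = 0.0571 to 0.143, adjusted p = 0.0856 to 0.143). The 70 assignments treat all libraries as separate, although WT replicates 1 and 4, and 2 and 3, were close to each other, as described below. These exact tests were not run with WT replicates summed in pairs, so their p-values carry that limit.

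The ratio of Ccnd1 to Ccna2 counts illustrates the size. Its log2 value was 1.29 ± 0.48 in WT and 3.70 ± 1.21 in the knockout (SD, n = 4 each), a 5.33-fold higher ratio (exact two-sided permutation p = 0.0286). For Ccnd2 to Ccnb1 the log2 ratio was -0.26 ± 0.18 in WT and 2.44 ± 1.41 in the knockout, so that Ccnb1 had more counts than Ccnd2 in every WT library and fewer in every knockout library. For Ccnd1 to Ccnb2 it was 3.97 ± 0.26 and 5.28 ± 1.41, and knockout replicate 1 (3.49) lay below all WT libraries (lowest 3.61). Without knockout replicate 1 the median difference over the 15 pairs was 2.39. The same exact test, whose two-sided p is the one-sided p doubled, then gave p = 0.0571 for each of the 15 pairs, the smallest it can give with 35 assignments.

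**Figure D3:**
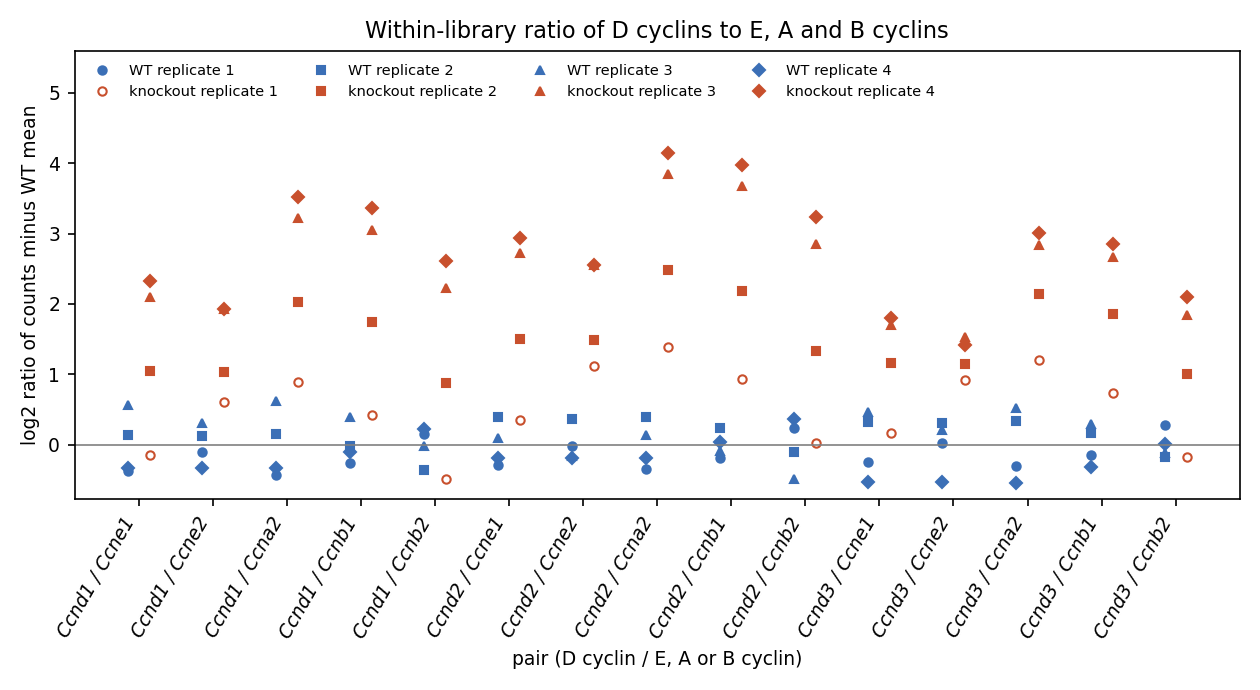
Log2 ratio of counts of each D cyclin to each E, A or B cyclin in every library, minus the WT mean of that pair, with WT in blue and knockout in orange. Knockout replicates 2, 3 and 4 lie above all WT libraries for every pair, and knockout replicate 1 (open circles) lies within or below the WT range for the pairs with Ccne1 and Ccnb2.

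Levels of different genes were compared per kilobase of transcript. The lengths were those of basic coding transcripts, for example 2447 bases for Ccnd3 and 2411 for Cdk2. With the exons of all annotated transcripts these lengths were 8775 and 6219 bases. The order of the genes and the summed levels below depend on this choice, and the other lengths were not used. In WT, Ccnd1 was the highest of the 10 at 336 ± 34.2 CPM per kb, followed by Ccna2 (146 ± 41.5) and Ccnb1 (116 ± 16.7), whose ranges overlapped. Ccnb2, Ccnd3, Ccne1, Ccnd2, Cdk1 and Cdk2 came next, between 52.5 and 30.5 CPM per kb on average, each overlapping its neighbour in the order, and Ccne2 was the lowest at 20.1 ± 3.44. In the knockout, Ccnd1 was again the highest (278 ± 38.7 CPM per kb), now followed by Ccnd2 (43.7 ± 8.55) and Ccnd3 (39.6 ± 7.60). The mitotic cyclins followed in the knockout order, with Ccnb1 at 28.6 ± 26.7 and Ccna2 at 27.4 ± 22.7 CPM per kb, and Ccne2 was again the lowest (6.66 ± 2.59). From Ccnd2 down to Cdk2 each gene overlapped its neighbour in the knockout order.

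Summed per kilobase, the 3 D cyclins reached 424, 393, 467 and 408 CPM per kb in WT replicates 1 to 4 and 355, 300.4, 391 and 397 in knockout replicates 1 to 4. The summed level of the 5 E, A and B cyclins was 452, 334, 320.3 and 420.3 CPM per kb in WT and 237, 88.6, 51.3 and 43.3 in the knockout. The D cyclins therefore held 48.4 to 59.3% of the summed level of the 8 cyclins in WT. In the knockout libraries they held 60.03, 77.2, 88.4 and 90.2%, in replicate order. Within the D cyclins, Ccnd1 made up 76.8 to 81.9% of the summed level in WT and 74.5 to 78.7% in the knockout.

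**Figure D4:**
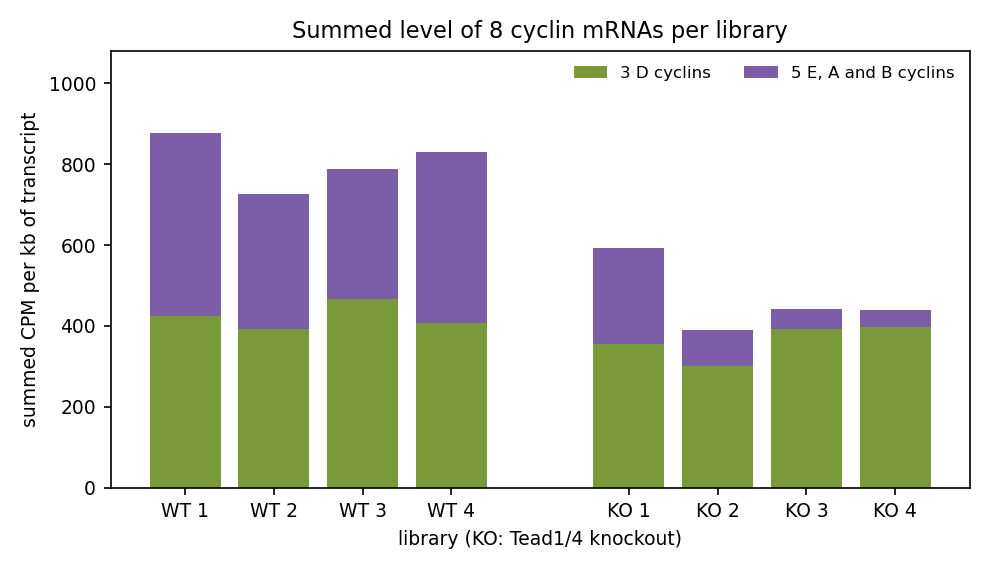
Summed CPM per kb of the 3 D cyclins (green) and the 5 E, A and B cyclins (purple), stacked, in each of the 8 libraries. The purple part shrinks from 320.3 to 452 CPM per kb in WT to 43.3 to 88.6 in knockout replicates 2, 3 and 4, with 237 in knockout replicate 1.

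The genes also differed in how they varied among libraries of 1 genotype. In all 7 of the E, A and B cyclins and CDKs, the highest knockout value was that of replicate 1, and for 5 of these 7 the order was replicate 1, then 2, 3 and 4. The spread from lowest to highest knockout library was 2.10-fold to 7.27-fold for these 7 genes and 1.37-fold to 1.53-fold for the D cyclins. The WT libraries split into pairs: Ccne1, Ccne2, Ccna2 and Ccnb1 were higher in both WT replicates 1 and 4 than in replicates 2 and 3, whereas Ccnb2 and Cdk1 were lower in both. Replicates 1 and 4, and 2 and 3, were also closest to each other over all genes (chi-square per degree of freedom 34.7 and 35.0, and 201.5 to 241.5 for the other WT pairs). Nothing in the labels ties the libraries of a WT pair together. Among the knockout libraries the same measure was 118.2, 257.3 and 205.1 for replicate 1 against replicates 2, 3 and 4. The other knockout pairs had 66.36 to 145.

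As a description over the 8 libraries, with each genotype's mean taken out and libraries and scaling shared by all genes, Ccne1 and Ccna2 varied together most closely (Pearson r = 0.998), and Ccnb2 followed Cdk1 (0.977). Ccnd3 varied in the same direction as Ccnb2 (0.878) and Cdk1 (0.882), while Ccnd1 and Ccnd2 varied in the opposite direction to Ccna2 (-0.497 and -0.357). Among 8892 other annotated genes with at least 10 CPM, those most like Ccnb1 were Cenpi, Foxm1 and Hnrnpl (r = 0.998, 0.998 and 0.997). The nearest to Ccna2 were Nde1, Ube2c and Kif20a (r = 0.995 each), and the nearest to Cdk1 were Pimreg, Phf19 and L3mbtl2 (0.999, 0.998 and 0.996). The nearest to Ccnd1 were less close, with Pus7 at 0.965, Ddx50 at 0.949 and Magt1 at 0.942. For Ccne1 the closest gene was Anln (0.998), for Ccnb2 Wdhd1 (0.998), for Ccne2 Flot2 (0.995) and for Cdk2 Stub1 (0.995). For Ccnd2 and Ccnd3 it was Herpud1 and Lasp1 (0.979 each). Each is the closest of 8892 genes over only 8 libraries, so a high r says little about a link between 2 genes. Knockout replicate 1 was the farthest knockout library from the others for each E, A and B cyclin.

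Proliferation marker transcripts moved with these genes. Of 16 markers of DNA replication and mitosis, 14 fell and none rose, with a median log2 fold change of -1.46 (16 and 0 without knockout replicate 1). Over all rows tested, 20.6% were called lower, and 24.6% without that library. Mcm6, a subunit of the replicative helicase, fell from 406 ± 17.3 to 125 ± 67.8 CPM (adjusted p = 0.00437 with edgeR), and Mki67, the Ki-67 gene, from 941 ± 397 to 208 ± 128 CPM (adjusted p = 0.00514). Without knockout replicate 1 their log2 fold changes went from -1.70 to -2.10 (Mcm6) and from -2.18 to -2.69 (Mki67). The 16 markers summed to 5404 to 6688 CPM in the WT libraries and 1024 to 3856 CPM in the knockout libraries. Their mean log2 level, relative to the mean over all libraries, was 0.362, -0.723, -1.52 and -1.75 in knockout replicates 1 to 4. Their part in the cyclin changes was not tested.

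The CDKs that D cyclins activate did not move alike. Cdk4 had 599.7 ± 55.2 CPM in WT and fell to 352 ± 128 in the knockout (-0.77 on the log2 scale, SE 0.24, adjusted p = 0.0274 with edgeR). This call was lost without WT replicate 1 or 4 (adjusted p = 0.0510 and 0.0575) or knockout replicate 2, 3 or 4 (adjusted p = 0.0691, 0.0717 and 0.0794), and with WT replicates summed in pairs (0.105). The log2 fold change of Cdk4 was -1.06 without knockout replicate 1 (adjusted p = 0.00126). Cdk6 did not pass (199 ± 52.4 and 174 ± 34.3 CPM, log2 fold change -0.20, adjusted p = 0.485), and its estimate was 0.0060 with library size only.

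Among the 7 CDK inhibitors, 4 could be tested and 1 rose, near the 20.9% of all rows called higher. Cdkn1a, which encodes p21, stood at 307, 204, 152 and 267 CPM in WT and at 469, 359.9, 496 and 501 CPM in the knockout, with no overlap. It rose by 0.97 on the log2 scale (SE 0.23, adjusted p = 0.00868 with edgeR). Cdkn2c, which encodes p18, had a log2 fold change of -0.78 (adjusted p = 0.116) and was called lower without knockout replicate 1 (-1.21, adjusted p = 0.0140). Cdkn1b, which encodes p27, and Cdkn2d, which encodes p19, did not pass (log2 fold change -0.11 and -0.16, adjusted p = 0.663 and 0.799). Cdkn2a and Cdkn2b, which encode the p16 and p15 inhibitors of CDK4 and CDK6, had a count of 0 in all 8 libraries, which allows up to 3 counts per library, or 0.0873 to 0.110 CPM.

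The step from D cyclins to E and A cyclins runs through the Rb family and E2F. Rbl1, which encodes the pocket protein p107, had 149.6 ± 10.4 CPM in WT and fell to 57.5 ± 22.1 (-1.38 on the log2 scale, adjusted p = 0.00258 with edgeR), while Rb1 and Rbl2 did not pass (-0.35 and -0.13, adjusted p = 0.224 and 0.561). Of 10 E2F and DP genes, 8 fell and none rose (8 and 0 without knockout replicate 1), with a median of -1.09. The share of all rows called lower was 20.6%, and 24.6% without that library. E2f2, an activating E2F, fell from 28.6 ± 1.57 to 6.29 ± 2.32 CPM (-2.18, adjusted p = 0.00053), and the DP subunit gene Tfdp1 from 347 ± 15.6 to 138 ± 31.8 CPM (-1.33, adjusted p = 0.000871). E2f4 and E2f7, which encode E2Fs that act mainly as repressors, fell by 1.82 (adjusted p = 0.00269) and by 2.16 (adjusted p = 0.00277) on the log2 scale.

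The MuvB complex and its partners B-Myb and FoxM1 control the late genes that carry CHR elements. Of these 7 genes, 4 fell and none rose (5 and 0 without knockout replicate 1), with a median of -1.15. For comparison, 20.6% of all rows were called lower (24.6% without that library). Foxm1, which encodes an activator of mitotic genes, fell from 588 ± 74.5 to 192 ± 139 CPM (adjusted p = 0.0131 with edgeR), and Mybl2, which encodes B-Myb, from 190 ± 24.1 to 45.1 ± 42.1 CPM (adjusted p = 0.0116). Without knockout replicate 1 the log2 fold changes of Foxm1 and Mybl2 went from -1.62 to -2.25 and from -2.07 to -2.98, and with WT replicates summed in pairs both calls were lost (adjusted p = 0.0646 and 0.0580). The core subunit genes Lin9 and Lin54 fell by 1.44 (adjusted p = 0.00457) and by 1.15 (adjusted p = 0.00801) on the log2 scale.

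Some genes that switch CDKs on and off fell. Of 8 activating genes, 3 fell and none rose (6 and 0 without knockout replicate 1). Among all rows, 20.6% were called lower (24.6% without that library). The 3 that fell were the phosphatase genes Cdc25a (log2 fold change -1.30, adjusted p = 0.00387 with edgeR) and Cdc25b (-0.73, adjusted p = 0.0168) and the CDK-binding subunit gene Cks1b (-1.37, adjusted p = 0.0189). Ccnh, the cyclin of the CDK-activating kinase, did not pass (-0.44, adjusted p = 0.0552). Without single libraries the calls of Cdc25b (knockout replicate 3 or 4, adjusted p = 0.0505 and 0.0504) and Cks1b (knockout replicate 2, adjusted p = 0.0548) were lost, as they were with WT replicates summed in pairs (0.0777 and 0.0787). The log2 fold change of Cks1b was -1.94 without knockout replicate 1. The inhibitory kinase genes Wee1 (-0.61, adjusted p = 0.0349) and Pkmyt1 (-1.12, adjusted p = 0.0266) both fell. The Wee1 call was lost with WT replicate 1 or 4 or knockout replicate 3 or 4 left out (adjusted p = 0.0837, 0.0607, 0.0956 and 0.0890) under upper-quartile scaling (0.0846) and under library size scaling (0.0704). The Pkmyt1 call was lost without WT replicate 2 or knockout replicate 2, 3 or 4 (adjusted p = 0.0545, 0.0773, 0.0675 and 0.0678). Both were lost with WT replicates summed in pairs (0.120 for Wee1 and 0.100 for Pkmyt1), and the Pkmyt1 log2 fold change was -1.65 without knockout replicate 1.

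Among 10 SCF-type and related genes, 3 rose and 3 fell (3 and 2 without knockout replicate 1), and the median was 0.09. With 20.9% of all rows higher and 20.6% lower, these counts do not set the list apart. Skp2, the F-box protein that targets p27, fell from 84.5 ± 6.42 to 26.1 ± 7.41 CPM (log2 fold change -1.70, adjusted p = 0.00059 with edgeR). Fbxo31, an F-box gene linked to cyclin D1 turnover, stood at 18.4, 31.2, 29.4 and 18.6 CPM in WT and at 42.3, 105, 61.0 and 60.4 CPM in the knockout, and rose by 1.46 on the log2 scale (adjusted p = 0.0049). Among 19 genes of the anaphase-promoting complex, which destroys A and B cyclins, and its regulators, 1 rose and 8 fell (1 and 12 without knockout replicate 1). Their median log2 fold change was -0.64. Of all rows, 20.9% were called higher and 20.6% lower (24.7% and 24.6% without that library). The subunit genes Cdc16 (-0.64), Cdc27 (-0.71) and Cdc23 (-0.72) fell (adjusted p = 0.00296, 0.00422 and 0.00547), and the small subunit gene Anapc13 rose from 4.05 ± 1.41 to 13.9 ± 2.05 CPM (adjusted p = 0.00153).

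Of 14 other cyclin genes tested, 2 rose and 4 fell (3 and 4 without knockout replicate 1), with a median of 0.03, close to the 0.02 over all rows. Ccng2, a cyclin gene expressed in resting cells, stood at 7.91, 26.5, 26.4 and 9.12 CPM in WT and at 46.4, 79.3, 67.9 and 61.2 CPM in the knockout, with no overlap, and rose by 1.86 on the log2 scale (SE 0.41, adjusted p = 0.0065 with edgeR). Ccnf, which encodes the F-box cyclin of G2 phase, fell by 1.68 (adjusted p = 0.0126) and Ccnyl1 by 1.29 (adjusted p = 0.00513) on the log2 scale. The call of Ccnf was lost with WT replicates summed in pairs (adjusted p = 0.0641), and its log2 fold change was -2.36 without knockout replicate 1. Of 13 other CDK genes tested, 2 rose and 3 fell (3 and 3 without knockout replicate 1). The counts of other cyclins and of other CDKs are near the shares of all rows, 20.9% higher and 20.6% lower. Cdk5, a kinase best known in neurons, rose by 0.71 (adjusted p = 0.0141), and Cdk16 fell by 0.78 (adjusted p = 0.00911), both on the log2 scale, and the Cdk5 call was lost with WT replicates summed in pairs (adjusted p = 0.0672).

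**Figure D5:**
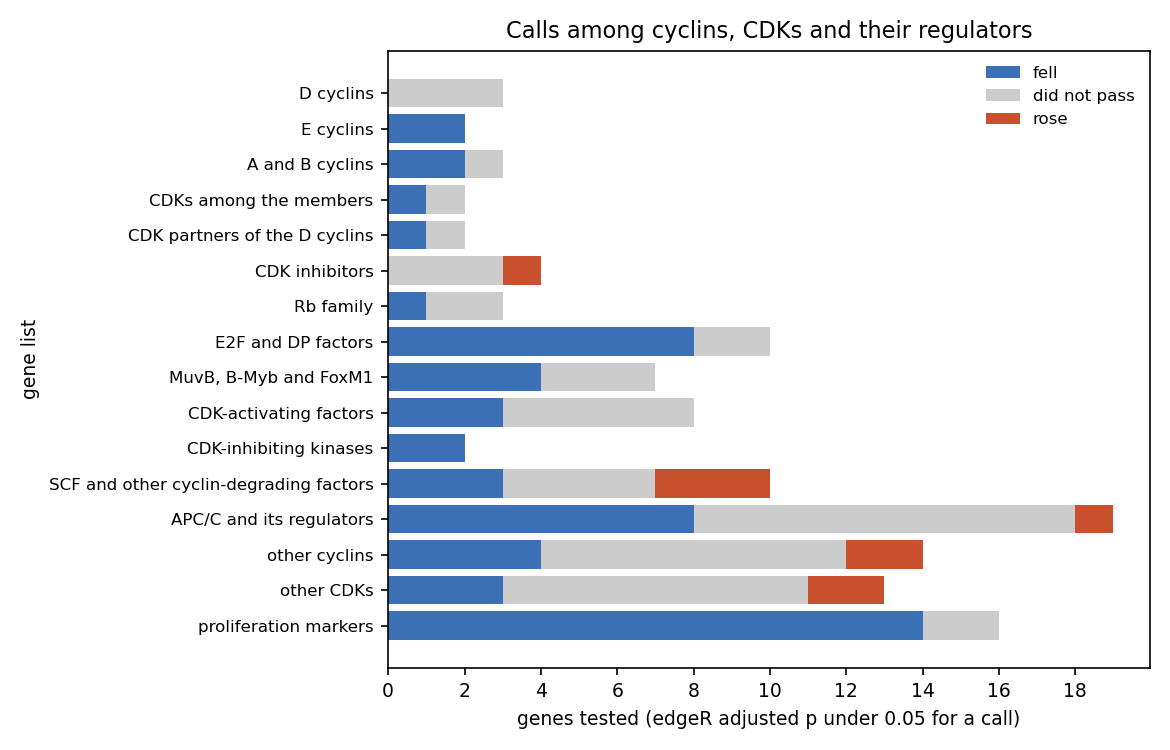
Number of genes tested in each list that fell (blue), did not pass (grey) or rose (orange) at an edgeR adjusted p under 0.05 in the fit of all 8 libraries. The D cyclins have no call, 8 of 10 E2F and DP genes and 14 of 16 proliferation markers fell, and increases occur among the CDK inhibitors, degradation factors and other cyclins and CDKs. Over all rows tested, 20.6% fell and 20.9% rose.

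Some members share exonic bases with a neighbouring gene, and the sources used here do not say whether strand was used in counting. In GENCODE M21 exons overlap between Ccnd1 and LTO1, Ccnd3 and Bysl, Ccne2 and Ints8, Ccna2 and Exosc9, and Cdk2 and Pmel. Exons of Ccnd2 overlap those of 2 antisense genes, 9330179D12Rik and Gm43126, which were not analysed here. LTO1 (13.4 ± 3.60 CPM in WT), Exosc9 (46.4 ± 10.5) and Pmel (0.367 ± 0.0437) had lower counts than the member they overlap. Bysl (88.2 ± 9.46 CPM in WT, log2 fold change -0.77) had 88.2 CPM against 127 for Ccnd3, and Ints8 (101 ± 17.3 CPM, -0.67) had 101 against 64.4 for Ccne2. Reads of the shared bases could count toward either gene, so the Ccnd3 and Ccne2 values are less certain.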

How the data were processed

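Per the labels and the values, the authors deposited raw gene counts (whole numbers) in 2 tables whose values do not differ, and 1 of these was analysed. Every library column carried a sample title. The submitters' processing notes name HISAT2, StringTie and GRCm38. No versions are given, and the sources used here do not state the counting program, its use of strand or its treatment of multiply matching reads.

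Rows with low counts were removed by filterByExpr (minimum count 10, minimum total 15). After TMM scaling, the knockout was compared with WT, two-sided and without covariates, by edgeR 4.0.16 in R 4.3.3 (glmQLFit and glmQLFTest). Benjamini-Hochberg adjustment covered the 13265 rows tested. The code was tested on simulated data. Each SE is the fold change divided by the square root of F. Pair ratios used a prior of 0.5 counts and exact permutation. Per-length levels used the merged exons of basic coding transcripts in GENCODE M21. All 10 members are named, with up to 4 genes of smallest p from each list of regulators and all genes of lists of 3 or fewer. The members and lists were chosen with earlier results of these data known, and the promoter motifs after the results were seen. Alternatives were DESeq2 1.42.0, limma 3.58.1 (voom), other scalings and filters, a replicate block, a stricter threshold, WT replicates summed in pairs, and each library left out.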

Additional observations from a re-analysis of the deposited data

Results flagged for a closer look

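Among the 10 genes and the 2 targeted genes, each screened in both genotypes (24 groups of 4 libraries), 1 library lay far from the rest of its group. WT replicate 3 had the lowest Ccnd2 level, at 196.8 CPM, against 251 to 258 CPM in the other WT libraries, and the gap took up 0.879 of the group's range. Chance alone flags about 1 in 20 groups. Without that library the log2 fold change of Ccnd2 was 0.18 (edgeR adjusted p = 0.449).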

How the results depend on the processing

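No alternative turned the direction of any of the 10 genes. The count of members called, 5 in the 8-library fit, was 2 with WT replicates summed in pairs (Ccna2 and Ccne2), 3 at an adjusted p under 0.01, and 4 to 8 with 1 library left out, the 8 being without knockout replicate 1. Over all rows, 5513 were called, 3134 with WT summed in pairs, 2736 at an adjusted p under 0.01, and 3809 to 6829 with 1 library left out. The median over all rows tested, 0.02 on the log2 scale, became 0.20 under upper-quartile or library size scaling, and 0.32 with no filter. The first 2 changed the calls to 3580 higher and 1962 lower, and to 3474 and 2001, from 2779 and 2734. Tead4 was at -0.71 in the 8-library fit and lost its call with upper-quartile factors (-0.51), library size only (-0.50), WT summed in pairs (-0.75) and the threshold of 0.01 (-0.71, adjusted p = 0.0261), and ranged from -0.83 to -0.57 with 1 library left out, where the call was lost without WT replicate 1 (adjusted p = 0.0601) or 4 (0.0664) or knockout replicate 2 (0.0800) or 3 (0.0606). The cause was not tested. The estimates that changed sign were of genes that were not called: Cdk6 (0.0060 with library size only), Cdkn1b (0.075 with upper-quartile factors, 0.084 with library size only, and -0.18 to 0.017 with 1 library left out, the highest without knockout replicate 1), Cdkn2d (-0.53 to 0.27 with 1 library left out, above 0 without WT replicate 3 or knockout replicate 4) and Rbl2 (0.063 with upper-quartile factors, 0.069 with library size only). The D to E, A and B cyclin median of 1.88 lay between 1.53 and 2.39 under the 12 alternatives run for it.

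Same-numbered libraries did not deviate together over all rows tested (correlations -0.044 to 0.00020). This shows no pairing by number, but a correlation over all rows cannot exclude it for single genes. With the replicate number as a block, 7 members and 4683 rows were called, Ccnb2 (adjusted p = 0.0318) and Cdk1 (0.0415) being the additions. The exact tests of the pair ratios were run with knockout replicate 1 left out, but not with any other library left out. They were also not run with pairing or with WT replicates summed in pairs.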
